A study of Ovis aries with 20 samples.

Results

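The 147 genes described here were the jejunum-enriched genes of the small intestine of pregnant ewes, out of 17683 genes listed in both segments. A gene was a member if its mean level in the normally fed jejunum was at least 2 times that in the normally fed ileum, with 1 FPKM added to each mean, and if its lowest normally fed jejunal value lay above its highest normally fed ileal value. FPKM, the unit of all levels here, is the number of sequenced fragments scaled by the length of the transcript and the size of the library. The ewes were wild-type Hu sheep at 115 days of gestation. RNA sequencing was done on 5 jejunal and 5 ileal libraries under normal feeding and on 5 jejunal and 5 ileal libraries under restricted feeding. Neither the number of ewes nor the degree of restriction is given in the labels, and nothing states that samples of a group came from separate animals. The p-values therefore measure the spread among these samples, which may be technical.

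The jejunum and the ileum are the middle and the last stretch of the small intestine. In mammals the jejunum is the main site at which sugars, amino acids and fats are digested at the brush border and taken up by enterocytes, whereas the ileum is known for the recovery of bile acids and vitamin B12 and for its lymphoid tissue. Genes that differ in level between these segments are used as molecular landmarks of position along the gut. The files give each gene an ID made of the word gene and a running number and do not pair these IDs with names, and 0 of the 147 member IDs matched an entry in NCBI's RefSeq annotation of the sheep assembly ARS-UI_Ramb_v3.0. No function was therefore assigned to any member, and the markers that would check the labelled tissues could not be looked up. Members are identified below by their rank in mean level in the normally fed jejunum or in the ratio used by the rule, and at most 2 IDs that were lower under restriction are printed.

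Some restricted libraries have to be named before the results. The jejunal library 2 and the ileal library 2 under restricted feeding were each other's closest match among all 20 libraries, with a correlation across genes of 0.986 on the log2(FPKM + 1) scale. The ileal library 4 under restricted feeding had the highest median level of the jejunum-enriched genes among the 10 ileal libraries. Results that rest on these libraries are given with and without them. The summed FPKM of a library lay between 427169 and 518472. The number of reads is unknown, but ratios between very low values fell partly on whole-fragment steps, which put the relative depth of the libraries between 0.901 and 1.27, with normally fed jejunal library 1 set at 1.

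Under normal feeding, where the members were chosen, they covered a wide range of levels. Their mean in the jejunum ran from 1.22 to 11710 FPKM with a median of 18.7 FPKM, and the median of their ileal means was 3.59 FPKM. The ratio of the rule ran from 2.01 to 329 with a median of 3.38. It reached 4 in 55 members and 16 in 8 members. In 41 members the mean of the normally fed ileum was below 1 FPKM. These values chose the members and are given as a description. The 3 members just inside the threshold had ratios of 2.01, 2.02 and 2.03, and the 3 genes just outside it had ratios of 1.9997, 1.99 and 1.98. A further 68 genes reached the ratio but overlapped between segments, and 263 genes did not overlap but had a smaller ratio.

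The restricted libraries took no part in the choice. All 147 members had a higher mean log2(FPKM + 1) in the restricted jejunum than in the restricted ileum, as had 39.5% of all 17683 genes. Their median difference between the segments was 1.41 on the log2(FPKM + 1) scale, with quartiles at 0.98 and 1.86, against -0.03 over all genes. With both libraries numbered 2 left out, all 147 were again higher in the jejunum and the median difference was 1.73, against -0.04 over all genes. The median difference under normal feeding was 1.80. The ratio of the rule, computed from the restricted means, was 2 or more in 113 members and 1.5 or more in 137, whereas 1.09% of all genes reached 2. Its median over the members was 2.40. In bulk tissue, fewer cells of a type and less RNA per cell cannot be told apart.

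**Figure D1:**
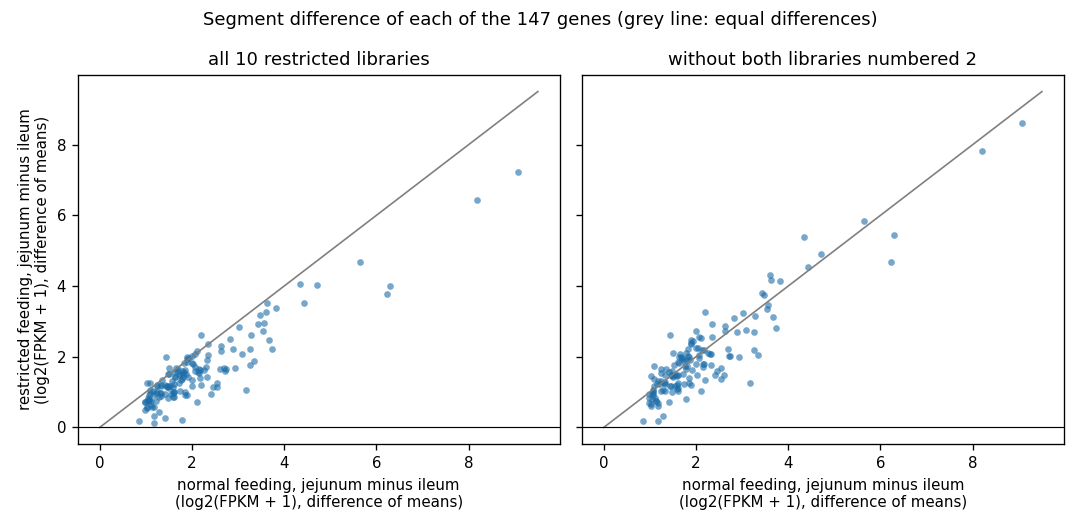
Each point is 1 of the 147 genes, placed by its jejunum minus ileum difference of mean log2(FPKM + 1) under normal feeding (horizontal axis, used to choose the genes) and under restricted feeding (vertical axis). All points lie above 0 in both panels. The median on the vertical axis is 1.41 with all 10 restricted libraries and 1.73 without both libraries numbered 2.

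Separation of the single libraries was less complete than that of the means. The lowest restricted jejunal value lay above the highest restricted ileal value in 16 of the 147 members, against a background of 0.537% of all genes. Without jejunal library 2 the groups did not overlap in 72 members, against 1.84% of all genes. Without both libraries numbered 2 they did not overlap in 76 members, against 2.72%, and without jejunal library 2 and ileal library 4 in 111 members, against 2.8%. In the remaining 36 members the groups overlapped even then. Leaving out jejunal library 2 and ileal library 4 together was a choice made after seeing the data. Ileal library 4 was named for its high member level, so leaving it out favours separation. Jejunal library 2 was the lowest restricted jejunal library in 134 of the 147 members, so leaving it out favours separation as well.

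No member passed the test of the segments under restricted feeding in the 10 restricted libraries (limma on log2(FPKM + 1), Benjamini-Hochberg adjusted p of at least 0.147), and neither did any of the 12640 genes tested, so the background was 0%. Of the members, 121 met the filter of at least 1 FPKM in at least 5 of the 10 libraries and 26 did not. At an unadjusted limma p under 0.05, 66 members were higher in the jejunum and 0 were lower, against 2.94% of all genes tested that were higher. With no filter, where all 147 members were tested, 88 were higher at this level, against 2.8% of all genes. Without both libraries numbered 2, 34 members passed at an adjusted limma p under 0.05, all higher in the jejunum, against 0.627% of all genes. A block for the replicate number in that fit takes libraries of equal number as 1 ewe. With it 69 members passed, against 1.83% of all genes. The same block with all 10 restricted libraries gave 0 members that passed. At an unadjusted limma p under 0.05, 106 of the 121 tested members were higher there, against 801 of 12640 genes. Without jejunal library 2 alone 29 passed, against 0.391%, and without jejunal library 2 and ileal library 4, 43 passed, against 0.548%. The latter fit and the block without both libraries numbered 2 were chosen after seeing the data. Jejunal library 2 was the lowest of its group in 134 of the 147 members, so leaving it out favours passing. Without ileal library 2 alone 7 passed, against 0.16%. With library weights, which count deviating libraries less, 53 members passed, against 1.17% of all genes. In a single fit of all 20 libraries 29 passed, against 0.585%. That fit also takes its spread from the normally fed libraries, which chose the members, so it is not an independent readout.

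The median level of the members in each library shows where the groups met. In the normally fed jejunum the medians of libraries 1 to 5 were 30.0, 21.2, 13.3, 15.3 and 13.6 FPKM. In the normally fed ileum they were 5.26, 2.44, 3.93, 2.60 and 1.89 FPKM. In the restricted jejunum they were 20.8, 3.21, 27.5, 28.6 and 12.4 FPKM, so that library 2 lay among the ileal libraries and the others lay at or near the normally fed jejunal ones. In the restricted ileum they were 5.52, 3.56, 3.23, 13.9 and 1.36 FPKM. Library 4 lay within the range of the normally fed jejunal libraries and the other 4 between 1.36 and 5.52 FPKM. Over all genes the library medians lay close together, from 5.01 to 5.97 FPKM across the 20 libraries.

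**Figure D2:**
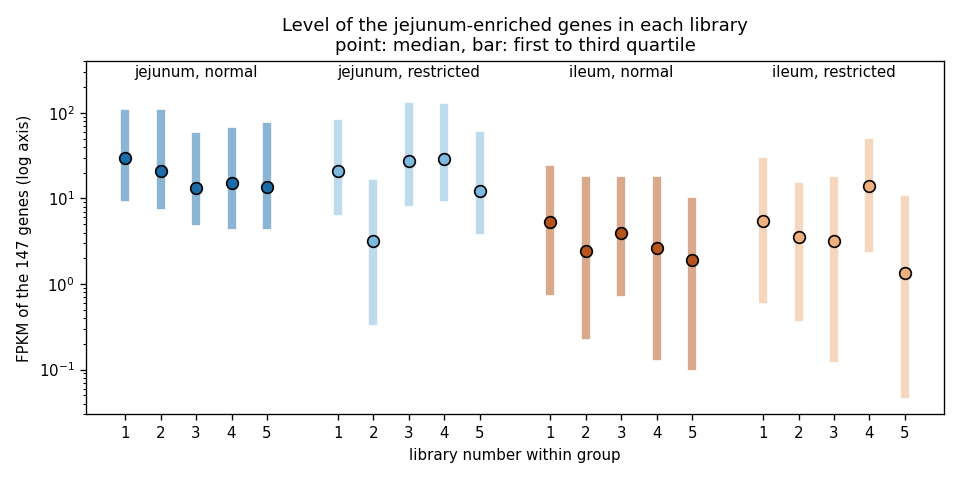
FPKM of the 147 genes on a log axis in each of the 20 libraries, with the median as a point and the quartiles as a bar, grouped by segment and feeding. In these genes the restricted jejunal library 2 (median 3.21 FPKM) sits with the ileal libraries and the restricted ileal library 4 (median 13.9 FPKM) with the jejunal ones.

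On a scale for each member where 0 is its normally fed ileal mean and 1 its normally fed jejunal mean of log2(FPKM + 1), the restricted jejunal libraries 1, 3, 4 and 5 had medians of 1.10, 1.22, 1.28 and 0.774. Jejunal library 2 had a median of 0.00. The restricted ileal libraries 1, 2, 3 and 5 had medians of 0.121, -0.023, -0.031 and -0.201, and ileal library 4 had a median of 0.629. The members of ileal library 4 were spread out on this scale, with quartiles at 0.174 and 1.08, so that its shift was uneven among the members. In jejunal library 2 the quartiles were -0.305 and 0.254.

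The same libraries stood out when members were counted one at a time. Jejunal library 2 was below every other restricted jejunal library in 134 of the 147 members, as it was in 24.5% of all genes. Ileal library 4 was above every other restricted ileal library in 96 members, as it was in 17% of all genes. The number of members at or above their lowest normally fed jejunal value was 131, 8, 128, 129 and 91 in restricted jejunal libraries 1 to 5. It was 27, 6, 8, 72 and 3 in restricted ileal libraries 1 to 5. The number of members above all their normally fed ileal values was 139, 32, 138, 139 and 133 in restricted jejunal libraries 1 to 5. By the same measure it was 45, 33, 21, 100 and 6 in the restricted ileal ones. The members took 8.98%, 1.65%, 8.04%, 8.77% and 4.39% of the summed FPKM in restricted jejunal libraries 1 to 5, and 1.44%, 1.40%, 0.882%, 2.88% and 0.739% in the ileal ones. In the normally fed jejunum this share was 7.66% ± 1.94 (SD, n = 5), and in the normally fed ileum 1.63% ± 0.712.

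The genes chosen by the mirrored rule, higher in the ileum, show what these libraries held of the other segment's landmarks. This ileum-enriched set had 153 genes. The number of them above all 5 of their normally fed jejunal values was 20, 109, 31, 30 and 29 in restricted jejunal libraries 1 to 5, and 142, 111, 127, 97 and 150 in the ileal ones. Jejunal library 2 and ileal library 2 were thus nearly equal in this count. On a scale where 0 is a gene's normally fed jejunal mean and 1 its normally fed ileal mean, their medians were 0.428 and 0.537. Restricted ileal libraries 1, 3, 4 and 5 had medians of 0.895, 1.13, 0.674 and 1.02. Restricted jejunal libraries 1, 3, 4 and 5 lay between -0.111 and 0.00. Both libraries numbered 2 thus lay between the segments in this set. Ileal library 4 combined a high level of jejunum-enriched genes with an ileum-enriched median of 9.13 FPKM. Restricted ileal libraries 1, 3 and 5 had higher values of that median, at 13.4, 15.3 and 17.6 FPKM, and ileal library 2 stood at 8.02 FPKM. Jejunal library 2 stood at 7.59 FPKM, whereas jejunal libraries 1, 3, 4 and 5 under restriction lay between 2.76 and 3.81 FPKM. Ileal library 4 was thus below ileal libraries 1, 3 and 5 and above all 5 restricted jejunal ones. The part of tissue composition in these values was not tested. All 153 ileum-enriched genes had the higher mean in the restricted ileum, with a median jejunum minus ileum difference of -1.12. Their groups did not overlap in 14 genes with all libraries, against 1.47% of all genes in that direction, and in 73 without jejunal library 2, against 4.09%. No test was made of whether both sets differ in this.

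**Figure D3:**
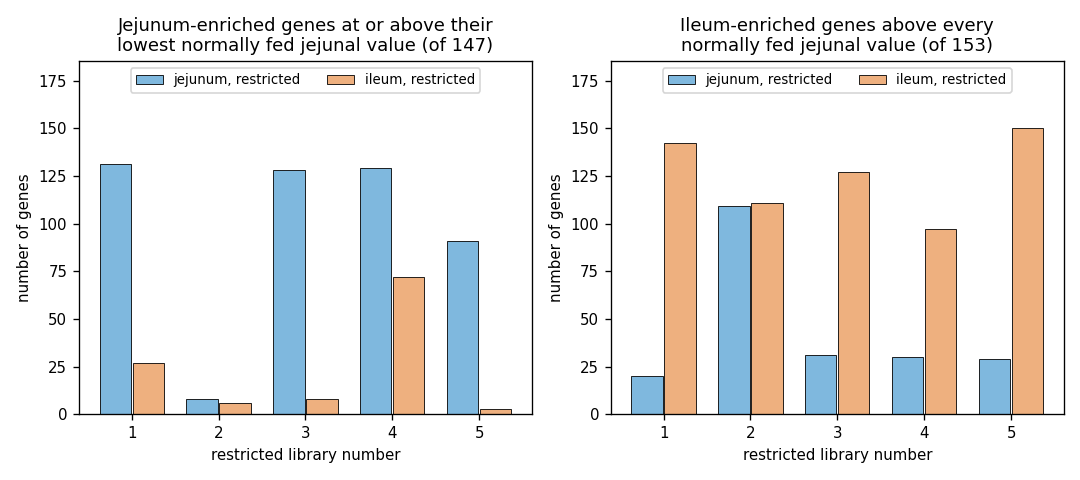
Number of genes (vertical axis) per restricted library, jejunal and ileal side by side. Left, jejunum-enriched genes at or above their lowest normally fed jejunal value, of 147. Right, ileum-enriched genes above all their normally fed jejunal values, of 153. Both libraries numbered 2 are low on the left (8 and 6) and alike on the right (109 and 111), and ileal library 4 reaches 72 on the left. The thresholds of left and right differ, so their counts are not to be set against each other.

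If equal numbers mark the same ewe, each restricted number gives its own segment difference. The jejunal library was the higher in 141 members for number 1, in 146 for number 3, in 139 for number 4 and in 147 for number 5, but in 75 for number 2. The median differences were 1.51, 0.04, 2.28, 1.02 and 1.73 on the log2(FPKM + 1) scale for restricted numbers 1 to 5. In number 4 both libraries had the highest member median of their restricted group. The share of all genes higher in the jejunal library was 39.1% to 44.6% over the 5 restricted numbers. Under normal feeding the rule itself made every number positive, with medians from 1.33 to 2.09.

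**Figure D4:**
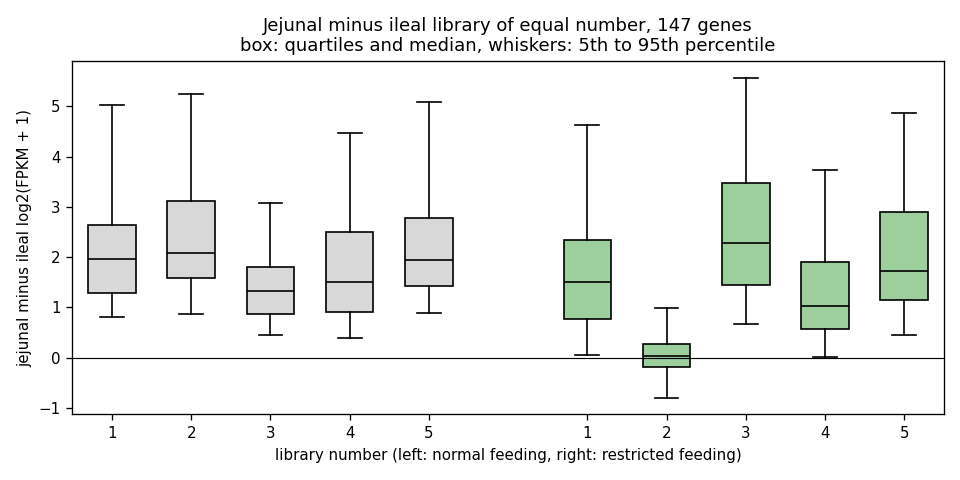
Jejunal minus ileal log2(FPKM + 1) of the 147 genes for libraries of equal number, with the median and the quartiles as a box and the 5th to 95th percentiles as whiskers. Under restricted feeding the medians are 1.51, 0.04, 2.28, 1.02 and 1.73 for numbers 1 to 5. Under normal feeding all differences are positive by the rule.

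The most abundant member stood at 9898, 14429, 9830, 12043 and 12352 FPKM in normally fed jejunal libraries 1 to 5 and at 14686, 1570, 5966, 10306 and 4506 FPKM in the restricted ones. In the restricted ileum it was at 2017, 1310, 1119, 2746 and 1410 FPKM. The 4 restricted jejunal libraries other than 2 all lay above the 5 ileal ones, and library 2 lay among them. Its restricted segment difference was 1.82 ± 0.548 (log2, SE) and did not pass (limma, adjusted p = 0.25).

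The second most abundant member behaved differently in both libraries numbered 2. In the restricted jejunum it was at 5616, 3965, 3187, 3683 and 3932 FPKM, so that library 2 was level with its group. In the restricted ileum it was at 940, 3761, 669, 1922 and 893 FPKM, and ileal library 2 was at a jejunal level. The segment difference was 1.60 ± 0.436 (log2, SE; limma, adjusted p = 0.217).

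The member ranked 3 had the largest segment difference under restriction. It stood at 8828, 149.9, 10434, 6883 and 4484 FPKM in the restricted jejunum and at 18.7, 49.6, 3.77, 467 and 1.69 FPKM in the restricted ileum. Jejunal library 2 was below ileal library 4 in this gene, and every other jejunal library was above all ileal ones. The difference was 7.21 ± 1.52 (log2, SE; limma, adjusted p = 0.149). In the normally fed ileum it was also uneven, at 103.1 FPKM in library 1 and at 0.241 to 13.0 FPKM in the others.

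The member ranked 5 was 1 of the 16 whose restricted groups did not overlap with all libraries in. It stood at 1437, 343, 810, 1026 and 557 FPKM in the restricted jejunum and at 126, 194, 16.03, 255 and 35.2 FPKM in the restricted ileum. Jejunal library 2 was its lowest jejunal value and still lay above ileal library 4.

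The member ranked 6 varied most among these abundant genes. It ran from 134 to 3733 FPKM in the normally fed jejunum and from 0.119 to 3760 FPKM in the restricted jejunum. In the restricted ileum it was at 220 and 195 FPKM in libraries 1 and 4, at 16.6 FPKM in library 3 and listed at 0 in libraries 2 and 5. Its segment difference of 3.77 ± 2.33 (log2, SE) was of a size like its spread (limma, adjusted p = 0.621).

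**Figure D5:**
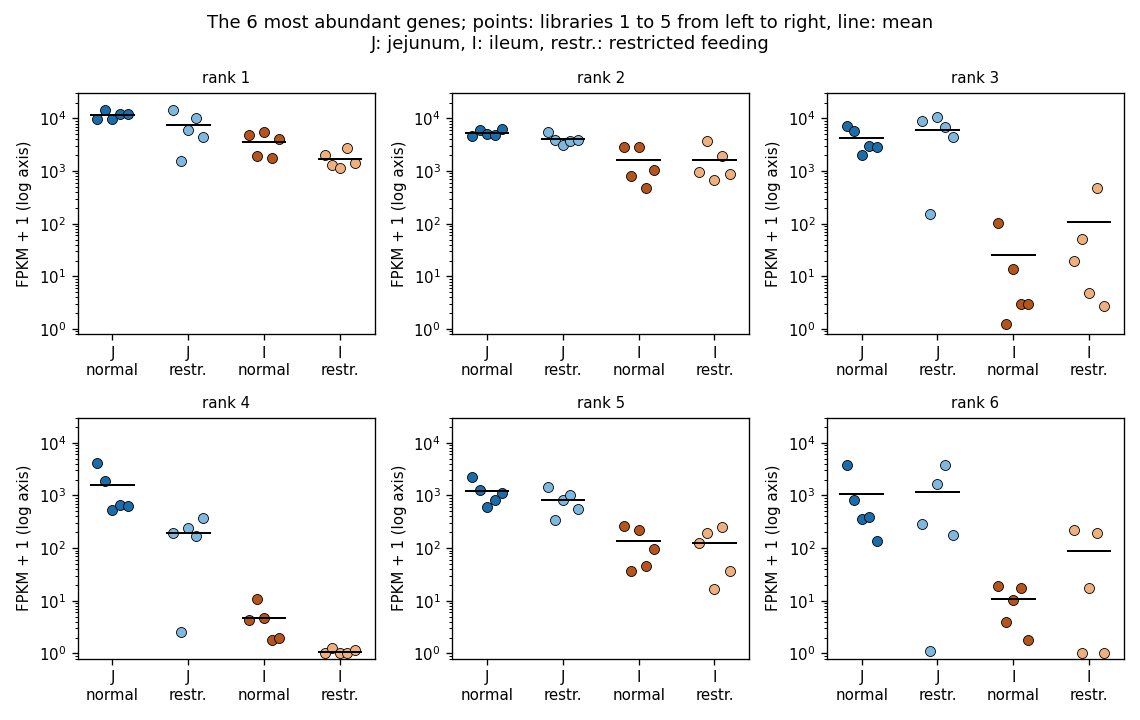
FPKM + 1 on a log axis for the 6 most abundant genes, with libraries 1 to 5 of each group as points from left to right and the group mean as a line. In all ranks except 2 the restricted jejunal library 2 lies below the other restricted jejunal libraries, down to 1.51 FPKM in rank 4 and 0.119 FPKM in rank 6.

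By the ratio of the rule, ranks 1 to 3 were the members ranked 4, 3 and 6 in level. The member ranked 4 by ratio stood at 170, 1.30, 196, 212 and 122 FPKM in the restricted jejunum, and at 0, 7.19, 2.46, 29.8 and 1.23 FPKM in the restricted ileum. The member ranked 5 by ratio was listed at 0 in all 5 restricted ileal libraries and in restricted jejunal library 2. It stood at 184.7, 27.5, 68.0 and 28.1 FPKM in the other restricted jejunal libraries. The member ranked 6 by ratio was at 8.01, 0, 20.9, 139 and 0.344 FPKM in the restricted jejunum and at or below 0.135 FPKM in the restricted ileum except in library 4, at 4.15 FPKM. In each of these 3 members ileal library 4 or jejunal library 2, or both, stood on the side of the other segment or at 0.

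A group of 9 members was nearly silent in the normally fed ileum, with a mean under 1 FPKM there and of at least 10 FPKM in the jejunum of the same feeding group. Under restriction 7 of the 9 again had an ileal mean below 1 FPKM, with a median of 0.301 FPKM over the 9. Their jejunal median was 20.04 FPKM in the restricted and 17.4 FPKM in the normally fed jejunum. In restricted jejunal library 2 each of the 9 was below 1 FPKM, between 0 and 0.870 FPKM. In ileal library 4, 3 of the 9 were above 1 FPKM. The groups did not overlap in 2 of the 9 with all restricted libraries and in 6 without jejunal library 2.

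The members were alike across levels in keeping their direction. Classed by their mean in the normally fed jejunum, the 32 members at 100 FPKM or more had a median restricted segment difference of 1.61 on the log2(FPKM + 1) scale, the 69 at 10 to 100 FPKM one of 1.48, and the 46 below 10 FPKM one of 1.18. The added 1 understates the differences of low genes on this scale. The ratio of the restricted means reached 2 in 25, 51 and 37 members of these classes. The groups did not overlap in 4, 6 and 6 members with all libraries and in 14, 33 and 25 without jejunal library 2. The filter of the test was missed by 0, 6 and 20 members of these classes.

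Members also differed in how evenly they were expressed among jejunal libraries. The highest normally fed jejunal value was a median of 2.61 times the lowest, and in 34 members it was less than 2 times. Without library 2 the same median in the restricted jejunum was 2.58. That value is over 4 libraries, fewer than under normal feeding, and the rule limited how low a normally fed jejunal value could be. Both medians are therefore not like measures of evenness. In 9 members the normally fed jejunal libraries spread over 10-fold or more, up to 83.5-fold, and 8 of these 9 spread over 10-fold or more among the 4 restricted jejunal libraries other than 2. Normally fed library 1 was the highest in 8 of the 9. Restricted jejunal library 4 was the highest in 6 of the 9 and so was restricted ileal library 4. Over all members, normally fed jejunal library 1 was the highest of its group in 91 and restricted jejunal library 4 in 66.

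Feeding within the jejunum was a comparison in which the normally fed side had chosen the members, so a lower level under restriction is favoured and nothing is read from the counts. Of the 147 members, 109 had a lower and 38 a higher mean in the restricted jejunum, with a median difference of -0.19 on the log2(FPKM + 1) scale against -0.01 over all genes. Without restricted jejunal library 2 the direction turned, with 98 members higher and 49 lower and a median of 0.16 against -0.02 over all genes. At an adjusted limma p under 0.05, 1 member passed and was lower, against 0.458% of all 12652 genes tested, and 0 were higher, against 0.0869%. At an unadjusted limma p under 0.05, 8 of the 145 members tested were lower, against 5.71% of all genes tested, and 2 higher, against 2.73%. The feeding groups did not overlap in 3 members, all lower under restriction, against 1.78% of all genes. The share of all genes that were higher without overlap was 0.594%.

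The member that passed was 1 of these 3. It ranked 32 in level and was picked out after its values were seen. It stood at 88.6, 126.8, 102.2, 103 and 93.0 FPKM in the normally fed and at 51.8, 46.6, 54.5, 46.8 and 62.7 FPKM in the restricted jejunum. All restricted values lay below all normally fed ones with little spread. Its difference was -0.95 ± 0.121 (log2, SE; limma, adjusted p = 0.0112). It passed in 16 of 19 alternatives, whose adjusted limma p ran from 0.00501 to 0.17. It did not pass without normally fed library 4 (limma, adjusted p = 0.0506). Nor did it pass with a block for the replicate number or in a single fit of all 20 libraries. The 19 count 1 fit more than once, since leaving out an ileal library does not alter a jejunal fit. The normally fed jejunal values of this test also chose the member. A lower level under restriction is thus favoured, and nothing is read from this p-value or tally. In the ileum the member was at 35.5 ± 15.6 FPKM under normal and 29.3 ± 8.95 FPKM under restricted feeding (SD, n = 5).

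The largest of the 3 differences was that of gene27271, the member ranked 4 in level and 1 in ratio. It stood at 4101, 1839, 530.4, 656 and 635 FPKM in the normally fed jejunum and at 195, 1.51, 239, 166 and 365 FPKM in the restricted jejunum. Every restricted jejunal library lay below every normally fed one. The difference was -3.56 ± 1.25 (log2, SE) and did not pass (limma, adjusted p = 0.397). In the normally fed ileum gene27271 was at 3.30, 9.79, 3.69, 0.820 and 0.981 FPKM. In the restricted ileum it was listed at 0 in libraries 1, 3 and 4 and stood at 0.260 and 0.151 FPKM in libraries 2 and 5, below every normally fed ileal library. It missed the filter of the ileal feeding fit and was not tested there. It was the 1 member of the 147 whose ileal feeding groups did not overlap with restriction lower, against 1.63% of all genes, a share above that of the members. Its restricted segment difference of 6.44 ± 1.16 (log2, SE) did not pass (limma, adjusted p = 0.147). It met the filter of that fit through the jejunal libraries alone, so nothing is read from this test.

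The other was gene6594, ranked 88 in level, at 10.8, 15.9, 17.0, 13.1 and 19.7 FPKM in the normally fed and at 6.92, 1.22, 3.38, 7.80 and 9.46 FPKM in the restricted jejunum. The difference was -1.44 ± 0.384 (log2, SE) and did not pass (limma, adjusted p = 0.182). In the restricted ileum it was at 2.44, 9.55, 4.51, 2.04 and 4.82 FPKM, so the segments overlapped. Its restricted segment difference of 0.20 ± 0.46 (log2, SE; limma, adjusted p = 0.954) was smaller than its error, and it turned to -0.0063 without restricted jejunal library 5.

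In the ileum, where the rule had chosen low normally fed values, 103 members had a higher and 44 a lower mean under restriction. The median difference was 0.20 on the log2(FPKM + 1) scale against -0.02 over all genes. Without ileal library 4 it was -0.04 against -0.01, with 67 members higher and 80 lower. The difference was at least 1 in 13 members, and in 10 of these 13 ileal library 4 was the highest restricted value. Without ileal library 4 the difference was still at least 1 in 1 of the 13. No member passed in the ileum at an adjusted limma p under 0.05, against 0.0156% of all 12829 genes tested. Of the members, 105 met the filter of this fit. At an unadjusted limma p under 0.05, 6 of these were higher, against 2.19% of all genes tested, and 5 lower, against 6.89%. None was higher without overlap, against 0.407% of all genes.

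The smallest restricted segment difference among the members, 0.13 ± 0.388 (log2, SE; limma, adjusted p = 0.968), was that of the member ranked 80, picked out after its values were seen. It stood at 38.8, 30.2, 7.72, 32.1 and 34.0 FPKM in the restricted ileum, against 5.23 to 9.47 FPKM in the normally fed ileum. In the restricted jejunum it was at 25.4, 28.2, 30.3, 19.0 and 40.0 FPKM, against 11.3 to 22.9 FPKM under normal feeding. Its restricted ileum was at a jejunal level in each library except 3, including library 2, and jejunal library 2 was level with its group.

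Whether the segment difference itself changed with feeding was tested over all 20 libraries. No member passed this interaction, nor did any of 13279 genes (limma, smallest adjusted p = 1), so the background was 0%. At an unadjusted limma p under 0.05 there were 5 of the 145 members tested, all with a smaller difference under restriction. The share of all genes tested was 1.97% in either direction. Since the normally fed difference was chosen to be large, a smaller one under restriction is favoured. Without both libraries numbered 2, 0 members had an unadjusted interaction p under 0.05, against 3.16% of all genes.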

How the data were processed

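RNA from jejunum and ileum was sequenced in 20 libraries, 5 in each of 4 groups taken from the sample titles. The authors deposited 1 FPKM table per library, per the file headers. How reads were aligned and counted, and on which build and annotation, is not stated in the labels or headers, so neither strand nor shared reads could be judged. Jejunal tables list 18058 genes and ileal ones 18051. The 17683 in both were used.

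Members were found by the rule given in the results. The members, lists and tests were chosen with earlier results of these data known. Tests used limma (version 3.58.1, R version 4.3.3) with a mean-variance trend on log2(FPKM + 1), over all genes reaching 1 FPKM in 5 or more libraries of a fit. The pseudocount of 1 understates differences of low genes. Benjamini-Hochberg adjustment was made over all genes tested, with a threshold of 0.05. Members below the filter count as not passing. The fits were checked on simulated data with independent normal noise, which held no deviating library and no pairs.

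Under restricted feeding, deviations from the group means over 13279 genes correlated at 0.168 to 0.637 between jejunal and ileal libraries of equal number. All 5 were over the bound of 0.1, and equal numbers were taken as pairs there, from the data and not the labels. Of the fits, only those with a block used these pairs. The main fits and the errors printed for single members did not. Under normal feeding the range was 0.022 to 0.500, and the numbers do not count as pairs there. Unequal numbers reached 0.445 under restriction, above the 0.168 of number 1. The bound therefore does not set equal numbers apart from unequal ones. The highest value, 0.637, was that of both libraries numbered 2.

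IDs to be printed were the members with the largest changes between feeding groups in the jejunum without overlap, up to 2 in each direction. No member was higher without overlap. Symbol-based marker lists could not be applied. The number of reads is unknown, so intervals that need it are not given. Alternatives covered the pseudocount, filter, scaling, library weights, block, single fit, member rule and libraries left out.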

Additional observations from a re-analysis of the deposited data

Results flagged for a closer look

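Within groups of 5 libraries, a value was set apart when its gap to the next library was over 0.71 of the range of its group. Chance sets apart about 1 in 20 groups if values are normally distributed. In these data the highest library alone was set apart in 5.80% to 6.93% of all genes, depending on the group. Values set apart were looked for in the library summaries, the 6 most abundant members and the printed IDs, 40 groups in all. Of these groups 3 stood apart, and no excess is read from that count. In the restricted jejunum, library 2 was far below the others in gene27271 (gap 0.843 of the range of log2(FPKM + 1)) and in the member ranked 3 in level (gap 0.801). In the normally fed ileum, library 2 was far above the others in gene6594 (gap 0.808), at 10.2 FPKM against 2.26 to 3.13 FPKM. Over all 147 members, the lowest library was set apart in this way in 1 member in the normally fed jejunum, 24 in the restricted jejunum, 3 in the normally fed ileum and 1 in the restricted ileum. Over all genes these shares were 3.46%, 3.01%, 1.82% and 2.64%. The highest library was set apart in 6, 0, 9 and 16 members of these groups, and in 6.79%, 6.93%, 5.80% and 6.67% of all genes.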

How the results depend on the processing

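The median segment difference of the members under restriction was positive in each setting tried, from 1.15 to 1.85 over the fits without 1 library and at 2.05, 0.93 and 1.13 with the member rule at a ratio of 4, at 1.5 or with 0.1 added to the means. Of the members tested, 1 was lower in the jejunum with library weights, 1 without restricted jejunal library 5 and 1 without restricted ileal library 3. The count of members that passed between the restricted segments was 0 in the main fit, and also 0 under other pseudocounts, filters and scalings and with the replicate block alone. It was 53 with library weights, 29 in a single fit of all 20 libraries, 34 without both libraries numbered 2, 69 without both and with the replicate block, 43 without jejunal library 2 and ileal library 4, and 0 to 29 without 1 library. Of the 16 members without overlap, 7 had a ratio of at least 4. With a ratio of 1.5 the count was 31 of 255, with 0.1 added 24 of 198, without both libraries numbered 2 it was 76, without jejunal library 2 and ileal library 4 it was 111, and without 1 library 16 to 72. The 1 member that passed for feeding in the jejunum became 2 with library weights, 0 with the replicate block, which joins different ewes there, 0 in the single fit, and 0 to 1 without 1 library (0 without normally fed jejunal library 4). In the ileum 1 member passed in the single fit, where 75 of 12829 genes passed, and 0 to 1 passed without 1 library (1 without restricted library 3, where 5 of 12734 genes passed). The interaction gave 0 in each of 30 settings. Across settings the adjusted limma p of gene27271 for the restricted segments was 0.00305 to 0.342. It was under 0.05 in 2 of 12 settings (library weights and the single fit). Fits without a restricted jejunal library or with the filter at 5 FPKM are not among the 12, since gene27271 then missed the filter. Wherever a filter was used, gene27271 met it through the restricted jejunum alone, so nothing is read from these segment tests. For feeding in the jejunum its adjusted limma p was 0.147 to 0.693. For gene6594 these ranges were 0.169 to 1.00 and 0.0399 to 0.413, the latter under 0.05 with library weights. Its restricted segment difference was -0.0063 without restricted jejunal library 5 and up to 0.55 without another library. The cause of these changes was not tested. The single fit draws part of its spread from the normally fed libraries, which chose the members. The normally fed jejunal values also enter the feeding tests in the jejunum, so nothing is read from the counts that passed there. The filter stayed at 5 libraries where libraries were left out. Between the restricted segments, 115 members met it without both libraries numbered 2, and 114 without jejunal library 2 and ileal library 4. The fits without jejunal library 2 and ileal library 4 and the block without both libraries numbered 2 were chosen after seeing the data. Leaving out jejunal library 2 or ileal library 4 favours the separation of the segments. The unknown read number limits what can be said of genes listed at 0.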

Other observations

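The ID numbers of the members were mostly scattered, with 9 of the 147 next to the number of another member. What the numbers stand for is not stated in the files.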
